A study of Mus musculus with 8 samples.

Results

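The genes described here encode the supply chain of sterols and fatty acids in the cell: 7 enzymes of the mevalonate pathway, 10 enzymes that turn farnesyl diphosphate into cholesterol, 6 regulators and carriers, 9 enzymes of fatty acid synthesis and desaturation, and 3 targets of the liver X receptors (LXR). These 35 members were taken by name from a table of 24054 genes, by a rule that uses no measured value. The list itself was chosen with earlier results of these data known, so its counts beside those of all genes are a description. All 35 were in the table, and 34 passed the filter on low counts and were tested. The exception was Elovl6, a fatty acid elongase, which had 0 counts in all 8 libraries. Counting error alone then allows a level of up to 0.166 to 0.502 CPM (a gene's counts scaled to the library's normalised total), the level of 3 counts.

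The libraries came from 2 derivatives of WEHI-231, a murine lymphoma of immature B cells long used as a model of growth arrest and death after crosslinking of the B cell receptor. The stable lines WEHI-control and WEHI-miR-148a, the second named for a microRNA, were each sampled without stimulation and after 14 h with anti-IgM at 2 ug/ml, an antibody that binds the IgM of the receptor. Each of the 4 groups had 2 libraries of polyA-selected RNA, and each of the 2 sequencing runs held 1 library of every group (the earlier run number in the labels is called replicate 1). All groups shared the parental line and the culture medium. How the stable lines were made, and whether each is 1 clone, is not given in the sources used here, and polyA-selected libraries do not measure the mature microRNA, so the name of the miR-148a line was not checked on it.

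Library totals ran from 5797035 to 18617609 counts, and anti-IgM replicate 1 of each line was the shallowest. The first principal component held 49.4% of the variance, and the second, with 21.1%, separated the runs. All 10 B cell markers were in the table, with a summed level of 2647 to 3820 CPM per library. Summed markers of fibroblasts reached at most 0.615 CPM, with Col1a2 and Col3a1 at 0 in every library, and those of liver and fat cells at most 0.383 CPM. T cell markers summed to 79.1 to 173 CPM, nearly all of it Lck, while Cd3e, Cd3d, Cd3g, Cd4 and Cd8a stayed at or below 0.348 CPM each. The labels do not say that replicates were separate cultures, and p-values then refer to the spread among these libraries alone, possibly a technical one.

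Cells make cholesterol from acetyl-CoA through mevalonate, isoprenoids, squalene and lanosterol. The membrane-bound SREBP transcription factors, encoded by Srebf1 and Srebf2, are carried by Scap to the Golgi and cut there when sterols are low, and the released part switches on genes of sterol and fatty acid synthesis. Insig proteins hold Scap in the endoplasmic reticulum when sterols are high, while LXR, activated by oxysterols, switches on genes that export cholesterol or reduce its uptake. SREBP binds sterol regulatory elements and E-boxes, commonly beside CCAAT boxes bound by NF-Y.

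The microRNA after which one line is named, and the sites it could pair with in the members, are printed to show the letters on which the line comparison bears. In the mature sequence (RefSeq, GRCm38.p6, chr6:51269829-51269850, minus strand) capitals mark the seed, bases 2 to 8.
mmu-miR-148a-3p: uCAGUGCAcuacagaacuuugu
An exact seed match of 7 bases (TGCACTG), with or without a following A, was present in the longest annotated 3' UTR of 5 of 35 members (14.3%) and of 12.7% of 21020 genes. Idi1 held the match of 8 bases, and Abca1 held 2 matches. Capitals mark the match in these windows of 30 bases, read from GENCODE M21 transcripts on GRCm38.
Idi1 (chr13:8890784-8890813, plus strand): tatatcccatatataTGCACTGAtgtctgt
Abca1, first match (chr4:53033875-53033904, minus strand): agcgaggtcttccttTGCACTGtgtcaagt
Abca1, second match (chr4:53030966-53030995, minus strand): taatggatctattttTGCACTGgaatatct
Insig1 (chr5:28077451-28077480, plus strand): acaaagtcagggttcTGCACTGcgatgctg
Lss (chr10:76554488-76554517, plus strand): atctgtagtgctttcTGCACTGgtatctcc
Srebf1 (chr11:60199790-60199819, minus strand): ggaaattgcagaggcTGCACTGgcccgatg
A match describes the letters only, and it does not show that the microRNA binds there.

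Promoters are shown because many members moved together with anti-IgM, but whether any motif goes with the response was not tested. RefSeq promoter windows (GRCm38.p6, 250 bases before to 50 after the start) were found for 27 of 35 members. Those without one were Fdps, Fdft1, Sqle, Stard4, Scd1, Scd2, Fads1 and Abcg1. Each motif was searched on both strands. The CCAAT box was in 21 of 27 members (77.8%) and in 41.1% of 27025 genes. The E-box CACGTG was in 5 members (18.5%; Hsd17b7, Dhcr7, Insig1, Scap and Abca1) and in 8.09% of genes. The sterol element core CACCCCAC was in Acat2 and Hmgcs1 (7.41% of members, 3.30% of genes), and TCACNCCAC, which overlaps it, in Hmgcs1 alone among members (3.70%, against 1.44% of genes). The longer E-box ATCACGTGA was in 0 members and 0.374% of genes, and CACCCCAC preceded by AT in 0 members and 0.0999% of genes. One exact form of the repeat bound by LXR, 2 copies of AGGTCA with 4 bases between them, was in 0 members and 0.0148% of genes. Inexact forms of this repeat were not searched, so the 0 does not say that the windows lack a site for LXR. Hmgcs1, with the sterol element, Mvd and Lss, whose mRNAs fell, and Abca1 and Mylip, whose mRNAs rose, are printed from the upstream part of the window, with the motifs found in capitals.
Hmgcs1 (chr13:119690101-119690350, plus strand): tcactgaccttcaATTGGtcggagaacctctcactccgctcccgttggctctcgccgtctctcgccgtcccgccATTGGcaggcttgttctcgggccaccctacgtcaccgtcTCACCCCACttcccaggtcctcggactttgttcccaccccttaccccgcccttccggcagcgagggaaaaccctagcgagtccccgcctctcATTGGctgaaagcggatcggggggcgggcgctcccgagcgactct
Mvd (chr8:122443423-122443672, minus strand): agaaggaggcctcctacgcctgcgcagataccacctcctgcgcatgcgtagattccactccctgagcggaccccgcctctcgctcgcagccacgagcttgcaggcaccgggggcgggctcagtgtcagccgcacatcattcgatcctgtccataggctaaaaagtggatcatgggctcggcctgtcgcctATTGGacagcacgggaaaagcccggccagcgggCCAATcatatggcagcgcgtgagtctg
Lss (chr10:76531355-76531587, plus strand): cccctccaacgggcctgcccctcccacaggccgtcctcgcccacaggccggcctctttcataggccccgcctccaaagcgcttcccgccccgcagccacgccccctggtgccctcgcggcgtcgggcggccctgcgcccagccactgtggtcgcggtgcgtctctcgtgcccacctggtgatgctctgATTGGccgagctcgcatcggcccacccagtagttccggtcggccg
Abca1 (chr4:53159896-53160145, minus strand): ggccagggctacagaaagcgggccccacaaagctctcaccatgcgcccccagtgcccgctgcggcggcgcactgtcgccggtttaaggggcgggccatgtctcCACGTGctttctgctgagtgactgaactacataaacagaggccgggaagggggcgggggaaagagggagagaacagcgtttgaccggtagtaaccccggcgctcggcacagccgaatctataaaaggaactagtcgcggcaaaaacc
Mylip (chr13:45389492-45389741, plus strand): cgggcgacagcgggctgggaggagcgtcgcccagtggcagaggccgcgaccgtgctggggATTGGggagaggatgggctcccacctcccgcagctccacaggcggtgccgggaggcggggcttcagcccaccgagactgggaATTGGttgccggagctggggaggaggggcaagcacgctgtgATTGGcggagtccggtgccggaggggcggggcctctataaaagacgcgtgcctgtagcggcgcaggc
ATTGG is the CCAAT box read on the other strand. The printed part of the Hmgcs1 window holds 3 of them around the sterol element, which lies at positions -137 to -129 from the start, and a further box lies downstream of the start at 10 to 14. In Mvd the 2 boxes lie at -60 to -56 and -27 to -23. The Abca1 window holds the E-box at -147 to -142 and no CCAAT box, and the Mylip window holds 3 CCAAT boxes. No match in a window says only that these letters are not there.

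Levels were compared between genes as mean CPM per kilobase of exon (GENCODE M21). The length joins the exons of all annotated transcripts of a gene. It can exceed that of the mRNA present, so ranks by this measure depend on the annotation. The stearoyl-CoA desaturases stood highest: Scd2 at 345, 385, 364 and 406 CPM per kilobase in the control unstimulated, control anti-IgM, miR-148a unstimulated and miR-148a anti-IgM groups, and Scd1 at 215, 256, 223 and 299. Acly, which makes cytosolic acetyl-CoA from citrate, followed at 159 to 220. Srebf2, encoding the SREBP that mainly drives sterol synthesis, was at 88.6 to 93.9 CPM per kilobase, and Srebf1 at 24.9 to 32.2. Among sterol enzymes in the unstimulated control line, Idi1 was at 115, Hmgcs1 at 80.4, Cyp51 at 72.6 and Fdps at 61.5 CPM per kilobase, and Tm7sf2 at 3.66. Acss2, an acetyl-CoA synthetase that uses acetate, and Fads2, a fatty acid desaturase, were lowest among the tested members in the unstimulated control line, at 0.854 and 1.09 CPM per kilobase. The rank of Acss2 rests on its joined exon length of 10.2 kilobases. Before division its mean there was 8.67 CPM, above Mylip at 7.93 and Fads2 at 3.60 CPM. Scd1 and Scd2 are paralogs, and how the counting treated reads that fit both is not given in the sources used here.

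**Figure D1:**
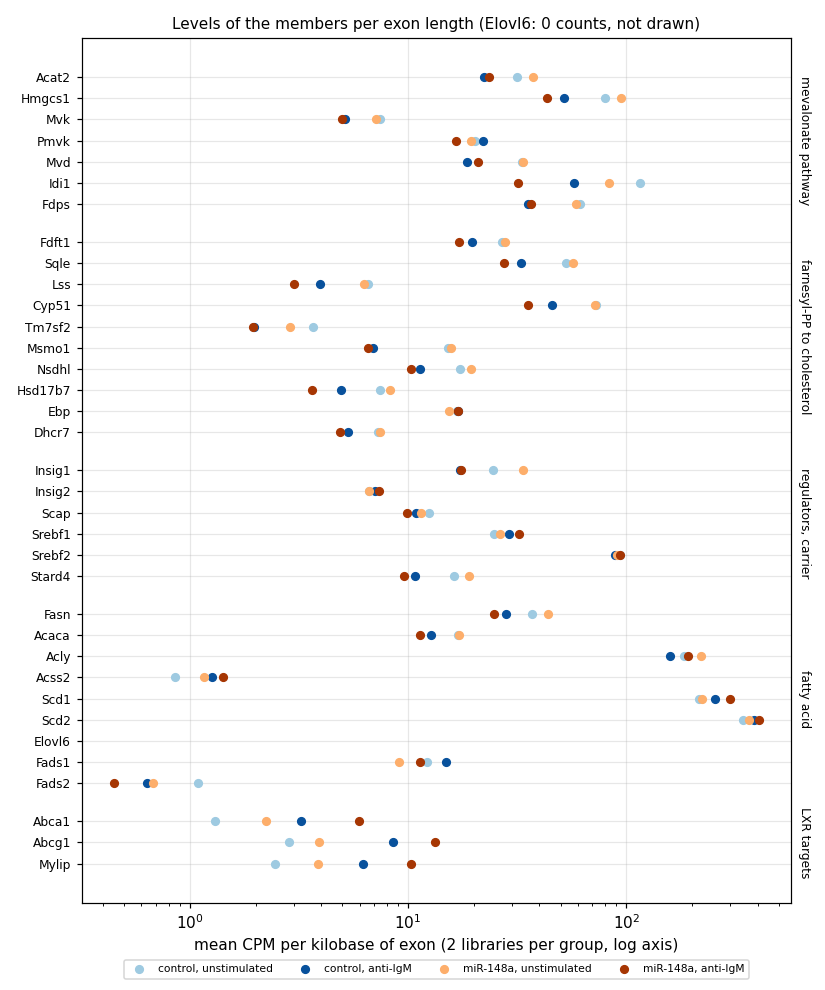
Mean CPM per kilobase of exon (horizontal log axis) for each tested member, 2 libraries per group, colours marking line and treatment. Scd2, Scd1 and Acly lie furthest to the right at 159 to 406, and the enzymes of sterol synthesis sit further left with anti-IgM than without, Pmvk in the control line and Ebp excepted.

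The first comparison asked what anti-IgM did to these mRNAs in the control line. Of the 17 enzymes of the mevalonate pathway and cholesterol synthesis 12 fell and the other 5 did not pass, all 3 LXR targets rose, and the mRNAs of the SREBPs and of Scap did not pass the test. Of 34 tested members, 14 fell, 4 rose and 16 did not pass (edgeR's quasi-likelihood test, Benjamini-Hochberg adjusted p under 0.05). Over all 11291 genes tested, 7.45% fell and 9.60% rose. The median log2 fold change of the members was -0.45, against 0.01 over all genes tested. With the replicate number as a block, 20 members fell and 7 rose, beside 17.2% and 17.6% of all genes. All 18 called members had the same sign within both runs. The calls came from these same libraries, so this was nearly bound to follow. The median of the members was -0.41 in the first run and -0.46 in the second.

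The same question was asked of the miR-148a line, where 18 members fell, 4 rose and 12 did not pass. Over all tested genes 14.0% fell and 14.7% rose there. The median of the members was -0.59, against 0.00 over all genes. All 22 called members had the same sign in both runs, again nearly bound to follow from calls on these libraries. The run medians of the members were -0.52 and -0.59. With the block, 20 fell and 6 rose, beside 23.3% and 22.8% of all genes. In both lines 16 members were called, each in the same direction. The share of all genes called in both lines was not counted, so this number has no background beside it. Tm7sf2 and Acss2 were called in the control line alone, and Mvk, Nsdhl, Hsd17b7, Fasn, Acaca and Scd1 in the miR-148a line alone, which does not show that their responses differed between the lines.

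The 17 enzymes from acetyl-CoA to cholesterol summed to 2306 and 2305 CPM in the unstimulated control libraries and to 1517 and 1326 CPM with anti-IgM, so the mean fell by 38.3%. The sum in the miR-148a line was 2384 and 2197 CPM unstimulated and 1313 and 1055 CPM with anti-IgM, and the mean fell by 48.3%. In neither line did stimulated and unstimulated sums overlap. These values are shares of each library's counts from whole cultures, in which fewer cells of a kind and less RNA per cell cannot be told apart.

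**Figure D2:**
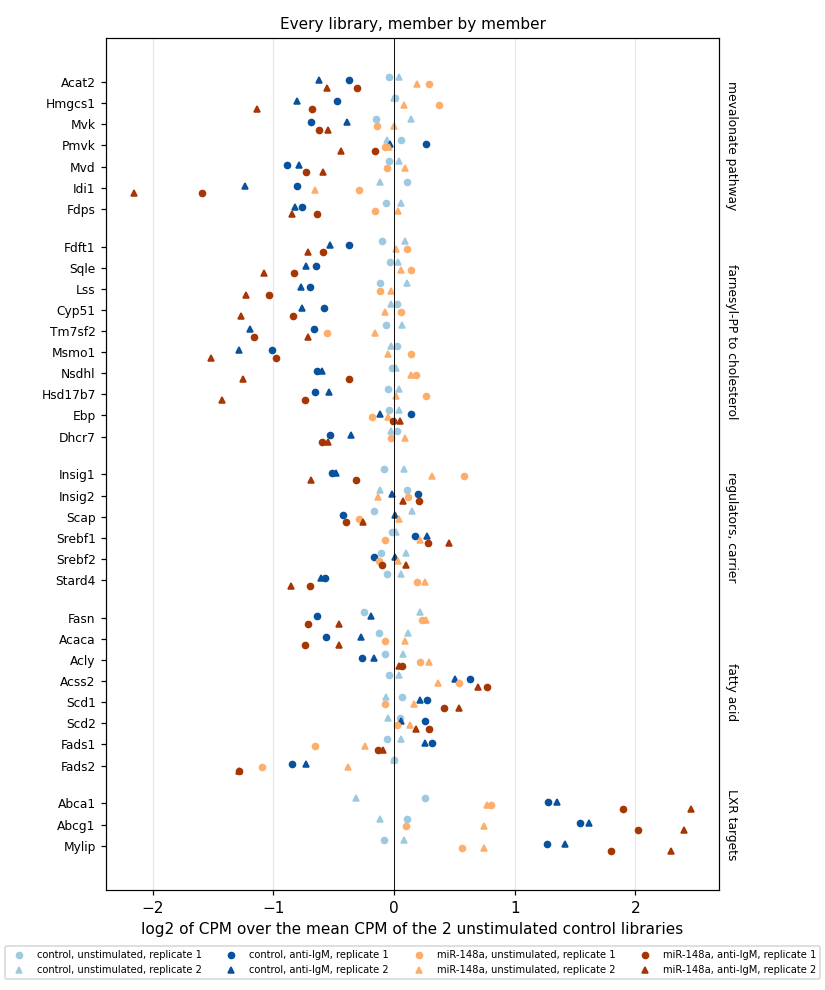
Level of each tested member in every library, as the log2 ratio of its CPM to the mean of both unstimulated control libraries (horizontal axis); circles are replicate 1 and triangles replicate 2. Dark symbols (anti-IgM) lie left of the light ones for most mevalonate and cholesterol enzymes and right of them for Abca1, Abcg1 and Mylip.

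Among the 7 enzymes of the mevalonate pathway, 5 fell in the control line and 6 in the miR-148a line. Hmgcs1 (chr13:119690379-119708260, plus strand, GRCm38), which makes HMG-CoA, measured 370 and 368 CPM unstimulated and 266 and 211 CPM with anti-IgM in the control line. Its levels in the miR-148a line were 477 and 391 CPM unstimulated and 231 and 168 CPM with anti-IgM. Stimulated libraries lay below unstimulated ones in both lines. The log2 fold change was -0.63 ± 0.17 (standard error; adjusted p = 0.0359, edgeR) in the control line and -1.13 ± 0.17 (adjusted p = 0.00197) in the miR-148a line. The control line call was lost without any 1 of the 4 control libraries, with an adjusted p of up to 0.177. An antisense gene shares 12.1% of the Hmgcs1 exon bases.

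Idi1 (chr13:8885501-8892451, plus strand), the isomerase that makes dimethylallyl diphosphate, had the largest fall of the pathway in either line. It went from 436 and 372 CPM to 231 and 172 CPM in the control line, and from 331 and 256 CPM to 134 and 90.8 CPM in the miR-148a line. On the log2 scale these falls were -1.01 ± 0.21 (adjusted p = 0.0141, edgeR) and -1.39 ± 0.22 (adjusted p = 0.00208). In the control line the call was lost without control unstimulated replicate 1 or anti-IgM replicate 2, with an adjusted p of up to 0.0765. A transcript on the other strand shares 9.22% of the Idi1 exon bases, and whether the counting used strand is not given in the sources used here.

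Mvd, which decarboxylates mevalonate diphosphate, went from 59.8 and 63.4 CPM to 33.3 and 35.6 CPM in the control line (log2 fold change -0.83 ± 0.11, adjusted p = 0.00238, edgeR). Mvd in the miR-148a line had 59.2 and 65.6 CPM unstimulated and 37.1 and 40.9 CPM with anti-IgM (-0.67 ± 0.11, adjusted p = 0.00248). Replicates were close in each group, and the stimulated and unstimulated ranges were far apart. Fdps, the farnesyl diphosphate synthase, went from 248 and 270 CPM to 153 and 147 CPM (-0.79 ± 0.11, adjusted p = 0.00351) in the control line. Its levels in the miR-148a line were 231 and 265 CPM unstimulated and 166 and 144 CPM with anti-IgM (-0.68 ± 0.11, adjusted p = 0.00287). A second protein-coding model on the same strand shares 26.7% of the Fdps exon bases, so the counting of Fdps is uncertain.

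Acat2, the cytosolic thiolase at the head of the pathway, fell in both lines. Its log2 fold changes were -0.50 ± 0.12 (adjusted p = 0.0267, edgeR) and -0.67 ± 0.12 (adjusted p = 0.00436). The control call was lost without either unstimulated control library or control anti-IgM replicate 2 (adjusted p up to 0.149). Mvk, the mevalonate kinase, was at -0.50 ± 0.16 (adjusted p = 0.0563; 0.00649 with the block) in the control line. In the miR-148a line it fell by -0.51 ± 0.16 (adjusted p = 0.0398), a call lost without any 1 of that line's libraries (up to 0.168) and in DESeq2 (0.12). Pmvk, the next kinase, had 36.1 and 33.3 CPM against 41.7 and 33.8 CPM in the control line and 32.9 and 33.6 CPM against 31.1 and 25.5 CPM in the miR-148a line. It passed in neither line (0.11 ± 0.14 and -0.25 ± 0.14).

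Of the 10 enzymes from farnesyl diphosphate to cholesterol, 7 fell in the control line and 8 in the miR-148a line. Msmo1, a sterol C4-methyl oxidase, had the largest fall of all members in the control line. It measured 95.4 and 92.3 CPM unstimulated and 46.7 and 38.5 CPM with anti-IgM there, and 104 and 90.4 CPM against 47.7 and 32.7 CPM in the miR-148a line. The log2 fold changes were -1.15 ± 0.17 (adjusted p = 0.00396, edgeR) and -1.29 ± 0.17 (adjusted p = 0.00125) (-54.9% and -59.1%). Both calls held without any 1 of the 8 libraries.

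Sqle, the squalene epoxidase, went from 286 and 301 CPM to 187 and 177 CPM in the control line and from 324 and 306 CPM to 165 and 139 CPM in the miR-148a line. Its log2 fold changes were -0.69 ± 0.11 (adjusted p = 0.00456, edgeR) and -1.05 ± 0.11 (adjusted p = 0.000538). The ranges with and without anti-IgM did not overlap in either line. Lss, the lanosterol synthase, went from 65.5 and 76.4 CPM to 43.8 and 41.6 CPM, and from 65.4 and 69.5 CPM to 34.5 and 30.2 CPM in the miR-148a line. That was -0.73 ± 0.12 (adjusted p = 0.0053) and -1.07 ± 0.12 (adjusted p = 0.000707).

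Cyp51, the lanosterol demethylase, measured 326 and 315 CPM against 214 and 189 CPM in the control line and 333 and 304 CPM against 179 and 133 CPM in the miR-148a line. It fell by -0.67 ± 0.14 (adjusted p = 0.0145, edgeR) and -1.03 ± 0.14 (adjusted p = 0.00135). Its control call was lost without either unstimulated control library or anti-IgM replicate 2 (adjusted p up to 0.0774). Fdft1, the squalene synthase, fell by -0.45 ± 0.11 (adjusted p = 0.0269) and -0.71 ± 0.11 (adjusted p = 0.00235). Fdft1 shares 18.3% of its exon bases with Ctsb on the other strand, and its control call was lost in 3 of 8 fits without 1 library (up to 0.158). Dhcr7, which makes the last reduction of one route to cholesterol, fell by -0.44 ± 0.11 (adjusted p = 0.0259) and -0.60 ± 0.11 (adjusted p = 0.00392). The control call for Dhcr7 was lost without either unstimulated library or anti-IgM replicate 1 (up to 0.128), in DESeq2 (0.062) and with the 2 compared groups alone.

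Nsdhl and Hsd17b7, which act with Msmo1 in removing C4-methyl groups, passed in the miR-148a line. Nsdhl had 49.1 and 50.1 CPM against 31.8 and 32.8 CPM in the control line (log2 fold change -0.62 ± 0.22, adjusted p = 0.0831, edgeR; 0.0102 with the block). Its miR-148a line levels were 56.2 and 54.8 CPM against 38.3 and 20.8 CPM (-0.94 ± 0.22, adjusted p = 0.0119). The stimulated miR-148a libraries were unequal for Nsdhl, with replicate 2 lowest of all 8, and the fold change was -1.42 without replicate 1 and -0.54 without replicate 2 of that group. The call was lost without unstimulated replicate 1 of that line (adjusted p = 0.0585, edgeR). Hsd17b7 had 36.8 and 39.2 CPM against 24.1 and 26.2 CPM (-0.59 ± 0.19, adjusted p = 0.0613; 0.00813 with the block), and 45.6 and 38.4 CPM against 22.8 and 14.2 CPM in the miR-148a line (-1.22 ± 0.19, adjusted p = 0.00235).

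Tm7sf2, a sterol C14 reductase, fell in the control line from 15.4 and 16.9 CPM to 10.2 and 7.04 CPM (-0.94 ± 0.23, adjusted p = 0.0254, edgeR), a call lost in 3 of 8 fits without 1 library (up to 0.155). The miR-148a line had 11.0 and 14.4 CPM against 7.23 and 9.87 CPM (-0.54 ± 0.23, adjusted p = 0.111; 0.0393 with the block). Tm7sf2 shares 12.1% of its exon bases with Vps51 on the same strand. Ebp, the sterol isomerase, passed in neither line: it had 37.6 and 39.8 CPM against 42.7 and 35.7 CPM in the control line and 34.2 and 37.4 CPM against 38.5 and 40.0 CPM in the miR-148a line. Its log2 fold changes were 0.01 ± 0.12 and 0.14 ± 0.12.

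**Figure D3:**
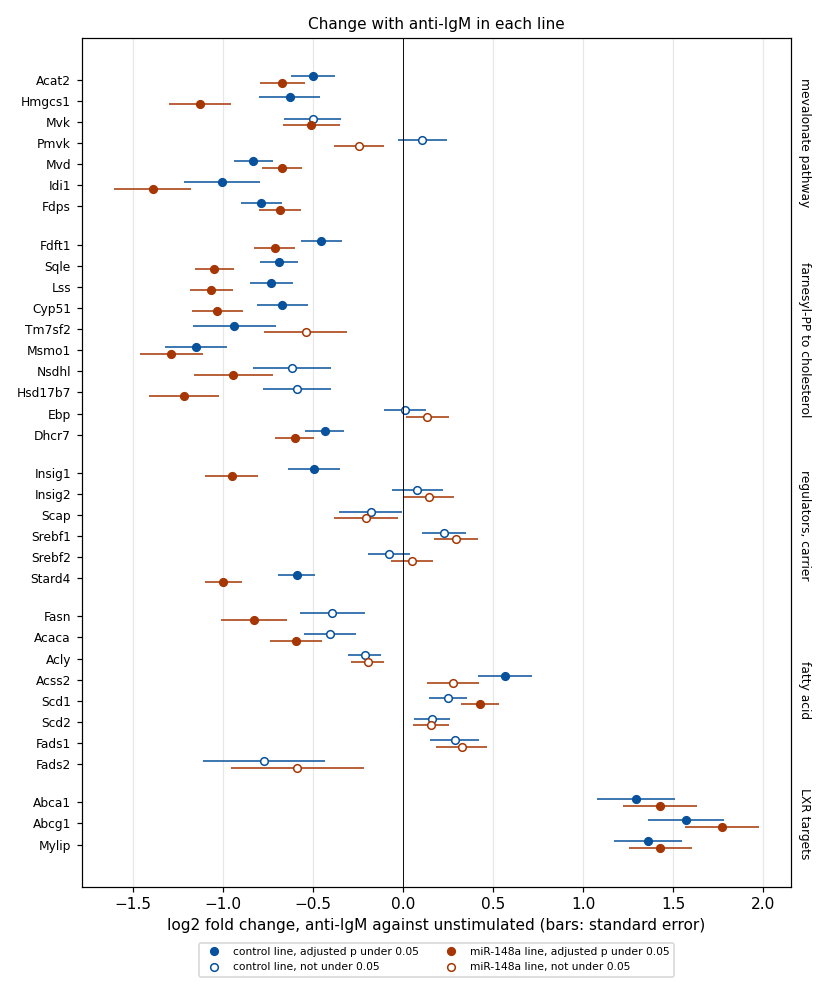
Log2 fold change of each tested member with anti-IgM (horizontal axis, bars: standard error), control line in blue and miR-148a line in red, filled where the edgeR adjusted p is under 0.05. Filled points lie between -1.39 and -0.44 for the enzymes of sterol synthesis and between 1.29 and 1.77 for the LXR targets.

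Among the 6 regulators and carriers, Insig1 and Stard4 fell in both lines and the other 4 passed in neither. Insig1, the Scap anchor that SREBP itself induces, went from 71.6 and 80.3 CPM to 53.2 and 54.3 CPM in the control line (-0.50 ± 0.15, adjusted p = 0.047, edgeR). The miR-148a line went from 113 and 94.6 CPM to 61 and 47.2 CPM (-0.95 ± 0.15, adjusted p = 0.00197). The control call for Insig1 was lost in 6 of 8 fits without 1 library, with an adjusted p of up to 0.193. Insig2, its paralog, had 24.8 and 21.3 CPM against 26.4 and 22.8 CPM in the control line and 25.0 and 21 CPM against 26.6 and 24.3 CPM in the miR-148a line. For Insig2 the ranges overlapped in both lines (0.08 ± 0.14 and 0.14 ± 0.14).

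Stard4, a carrier that moves cholesterol through the cytosol, went from 87.4 and 94.7 CPM to 61.1 and 59.8 CPM in the control line (-0.59 ± 0.10, adjusted p = 0.00694, edgeR). Stard4 in the miR-148a line went from 104 and 109 CPM to 56.2 and 50.3 CPM (-1.0 ± 0.10, adjusted p = 0.000557). The control call was lost without control unstimulated replicate 2 (adjusted p = 0.054).

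Srebf2 measured 623 and 721 CPM against 598 and 674 CPM in the control line and 617 and 687 CPM against 627 and 722 CPM in the miR-148a line. Replicate 2 was higher than replicate 1 in all 4 groups, and the log2 fold changes were -0.08 ± 0.12 and 0.05 ± 0.12. Scap had 82.5 and 103 CPM against 69.1 and 92.9 CPM, and 75.4 and 95.4 CPM against 70.0 and 77.6 CPM in the miR-148a line, also with replicate 2 higher in each group (-0.18 ± 0.18 and -0.21 ± 0.18). A transcript on the other strand shares 13.2% of the Scap exon bases. Srebf1, whose transcripts include the SREBP form tied to fatty acid synthesis, had 139 and 142 CPM against 159 and 170 CPM, and 133 and 163 CPM against 171 and 192 CPM in the miR-148a line. It did not pass without the block (0.23 ± 0.12, adjusted p = 0.234, and 0.29 ± 0.12, adjusted p = 0.101, edgeR) and rose with it (adjusted p = 0.045 and 0.0073). The Srebf1 isoforms were not told apart in these gene counts.

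Fatty acid genes moved less uniformly. In the control line 1 of 8 tested members rose and 0 fell. There 5 of the 8 had an unadjusted p under 0.05 (edgeR), beside 3649 of all 11291 genes. DESeq2 called Acaca, as lower, and no other of the 8. Of the same 8, 2 fell and 1 rose in the miR-148a line. With the block, 3 fell and 3 rose in the control line, and 3 fell and 2 rose in the miR-148a line. Fasn, the fatty acid synthase, had 341 and 468 CPM against 260 and 354 CPM in the control line, where the ranges overlapped but both runs fell (-0.39 in the first run and -0.40 in the second). The pooled change there was -0.39 ± 0.18 (adjusted p = 0.17, edgeR; 0.00486 with the block). The fall of Fasn in the miR-148a line was from 475 and 486 CPM to 246 and 294 CPM (-0.83 ± 0.18, adjusted p = 0.00951).

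Acaca, the carboxylase that commits acetyl-CoA to fatty acids, had 266 and 314 CPM against 197 and 240 CPM in the control line (-0.41 ± 0.14, adjusted p = 0.086, edgeR; 0.000498 with the block). Acaca in the miR-148a line went from 275 and 309 CPM to 174 and 212 CPM (-0.60 ± 0.14, adjusted p = 0.0142), a call lost in 2 of 8 fits without 1 library (up to 0.0828). Acly had 924 and 1026 CPM against 812 and 868 CPM, and 1131 and 1189 CPM against 1021 and 1002 CPM in the miR-148a line. It did not pass without the block (-0.21 ± 0.09, adjusted p = 0.14 and 0.0229 with it, and -0.20 ± 0.09, adjusted p = 0.136 and 0.0256 with it).

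Of the 4 desaturases, Scd1 was called without the block, as higher in the miR-148a line. Scd1 had 1102 and 1005 CPM against 1276 and 1225 CPM in the control line (0.25 ± 0.11, adjusted p = 0.145, edgeR; 0.0333 with the block). Scd1 rose in the miR-148a line from 999 and 1182 CPM to 1399 and 1529 CPM (0.43 ± 0.11, adjusted p = 0.0168), a call lost without unstimulated replicate 1 or anti-IgM replicate 2 of that line (up to 0.156). Scd2 passed in neither line, with 1948 and 1818 CPM against 2250 and 1960 CPM and with 1914 and 2069 CPM against 2296 and 2138 CPM (0.16 ± 0.10 and 0.15 ± 0.10). Fads1, which desaturates polyunsaturated fatty acids, had 56.3 and 61.2 CPM against 73.0 and 70.4 CPM, and 37.3 and 49.8 CPM against 53.6 and 55.3 CPM in the miR-148a line. It did not pass in the main edgeR fit without the block (0.29 ± 0.14, adjusted p = 0.182 and 0.0494 with it, and 0.32 ± 0.14, adjusted p = 0.113 and 0.0247 with it).

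Acss2 was the fatty acid gene that rose in the control line, from 8.42 and 8.93 CPM to 13.4 and 12.3 CPM (0.56 ± 0.15, adjusted p = 0.0334, edgeR). The call was lost in 6 of 8 fits without 1 library (up to 0.157), in DESeq2 (adjusted p = 0.172), with low counts kept and with the 2 compared groups alone. Acss2 in the miR-148a line had 12.6 and 11.1 CPM against 14.8 and 14.0 CPM (0.28 ± 0.15, adjusted p = 0.184). Fads2 was low, at 3.60 and 3.61 CPM against 2.01 and 2.17 CPM and at 1.68 and 2.77 CPM against 1.48 and 1.48 CPM, and passed in neither line (-0.77 ± 0.34 and -0.59 ± 0.37).

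All 3 LXR targets rose in both lines, and all 6 calls held without any 1 of the 8 libraries. Abca1 (chr4:53030787-53159895, minus strand), the transporter that loads cholesterol onto apolipoprotein A-I, measured 16.1 and 10.8 CPM unstimulated and 32.6 and 34.2 CPM with anti-IgM in the control line. The miR-148a line measured 23.5 and 23.0 CPM unstimulated and 50.0 and 73.9 CPM with anti-IgM. The rises were 1.29 ± 0.22 (adjusted p = 0.00627, edgeR) and 1.43 ± 0.21 (adjusted p = 0.00155) on the log2 scale, 2.45-fold and 2.69-fold.

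Abcg1, which exports cholesterol to lipoprotein particles, rose from 22.4 and 19.2 CPM to 60.6 and 63.5 CPM in the control line (1.57 ± 0.21, adjusted p = 0.00251, edgeR). In the miR-148a line it rose from 22.3 and 34.8 CPM to 84.2 and 110 CPM (1.77 ± 0.21, adjusted p = 0.000741). These were the largest changes of any member, 2.97-fold and 3.41-fold. Mylip, a ubiquitin ligase that marks lipoprotein receptors for degradation, rose from 7.48 and 8.39 CPM to 19.1 and 21.2 CPM (1.36 ± 0.19, adjusted p = 0.00277) in the control line and in the miR-148a line from 11.7 and 13.3 CPM to 27.6 and 38.9 CPM (1.43 ± 0.17, adjusted p = 0.000906).

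Abca1 and Abcg1 are also abundant in macrophages. Of 8 listed marker symbols of monocytes and macrophages, Adgre1, a second name of Emr1, was absent, and the other 7 were in the table. Their summed level was 1.5 and 1.98 CPM unstimulated against 4.35 and 7.65 CPM with anti-IgM in the control line, and 1.68 and 0.922 CPM against 9.53 and 11.3 CPM in the miR-148a line. Most of the difference was Itgam, and Lyz2, S100a8 and S100a9 were at 0 in all 8 libraries. Csf1r, Emr1 and Cd14 reached at most 1.29, 1.39 and 0.164 CPM. Whether any such cells were present, or had a part in the rise of the LXR targets, was not tested.

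**Figure D4:**
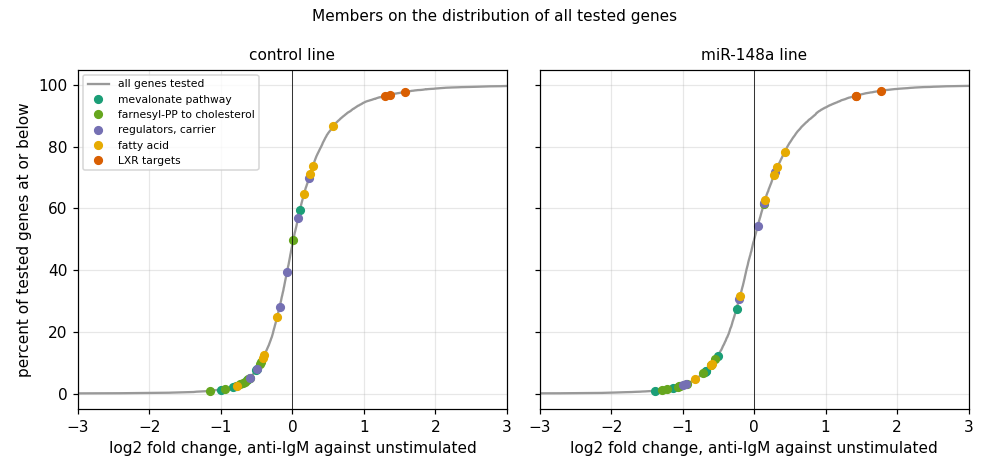
Cumulative distribution of the log2 fold change with anti-IgM over all 11291 genes tested (grey line, vertical axis in percent of genes), with the members placed on it by role, control line left and miR-148a line right. Enzymes of sterol synthesis gather at the low end and the 3 LXR targets at the high end, while the regulators and fatty acid genes are spread out.

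The lines were then compared with each other in each condition. Without stimulation, 0 of 34 members passed (edgeR, 0.487% of all genes did), and DESeq2 called 0. An unadjusted p under 0.05 (edgeR) was found for 6 members and for 1286 of all 11291 genes. With the replicate block 4 members were higher and 2 lower in the miR-148a line, where 3.91% of all genes were higher and 3.37% lower. Higher were Abca1 (log2 difference 0.74), Mylip (0.65), Insig1 (0.46) and Acly (0.25), and lower were Idi1 (-0.47) and Fads1 (-0.44), with adjusted p between 0.00263 and 0.0329. The summed level of the 17 sterol enzymes was nearly equal, at 2305 ± 1.02 CPM (SD, n = 2) in the control line and 2291 ± 132 CPM (SD, n = 2) in the miR-148a line.

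Between the stimulated lines, 0 of 34 members passed (edgeR, 2.52% of all genes did), and DESeq2 called 2, Idi1 and Abca1. The share of all genes that DESeq2 called was not counted. Here 11 members had an unadjusted p under 0.05 (edgeR), beside 2059 of all 11291 genes. The smallest adjusted p belonged to Abca1 (0.90 ± 0.21, adjusted p = 0.06, edgeR), Mylip (0.73 ± 0.17, adjusted p = 0.069) and Idi1 (-0.85 ± 0.21, adjusted p = 0.0842). These 3 passed when genes with low counts were kept or when miR-148a anti-IgM replicate 1 was left out, and Abca1 passed without control unstimulated replicate 1. With the block 4 were higher (Abca1, Mylip, Abcg1 and Acly) and 6 lower (Idi1, Pmvk, Lss, Fads1, Cyp51 and Sqle), beside 7.90% and 8.24% of all genes.

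The members with microRNA seed matches went in different directions between the lines. Idi1, with the match of 8 bases printed above, had 331 and 256 CPM in the unstimulated miR-148a line and 436 and 372 CPM in the control line, and 134 and 90.8 CPM against 231 and 172 CPM with anti-IgM. The lines did not overlap in either condition. Abca1, with 2 matches, was higher in the miR-148a line in every pairing of libraries of 1 condition, at 23.5 and 23.0 CPM against 16.1 and 10.8 CPM and at 50.0 and 73.9 CPM against 32.6 and 34.2 CPM. Lss was at -0.07 ± 0.11 unstimulated and -0.40 ± 0.12 with anti-IgM, Insig1 at 0.46 ± 0.14 and -0.00 ± 0.15, and Srebf1 at 0.08 ± 0.12 and 0.15 ± 0.12 (log2 difference, miR-148a line minus control line). In the main edgeR fit, without the block, no difference passed. DESeq2, also without it, called Idi1 (adjusted p = 0.000877) and Abca1 (adjusted p = 0.006) with anti-IgM. With the block (edgeR), Idi1 passed unstimulated and with anti-IgM (adjusted p = 0.00263 and 4.44e-05), and so did Abca1 (0.0266 and 0.00284). Insig1 passed with it only unstimulated (0.0195), Lss only with anti-IgM (0.027), and Srebf1 in neither condition.

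**Figure D5:**
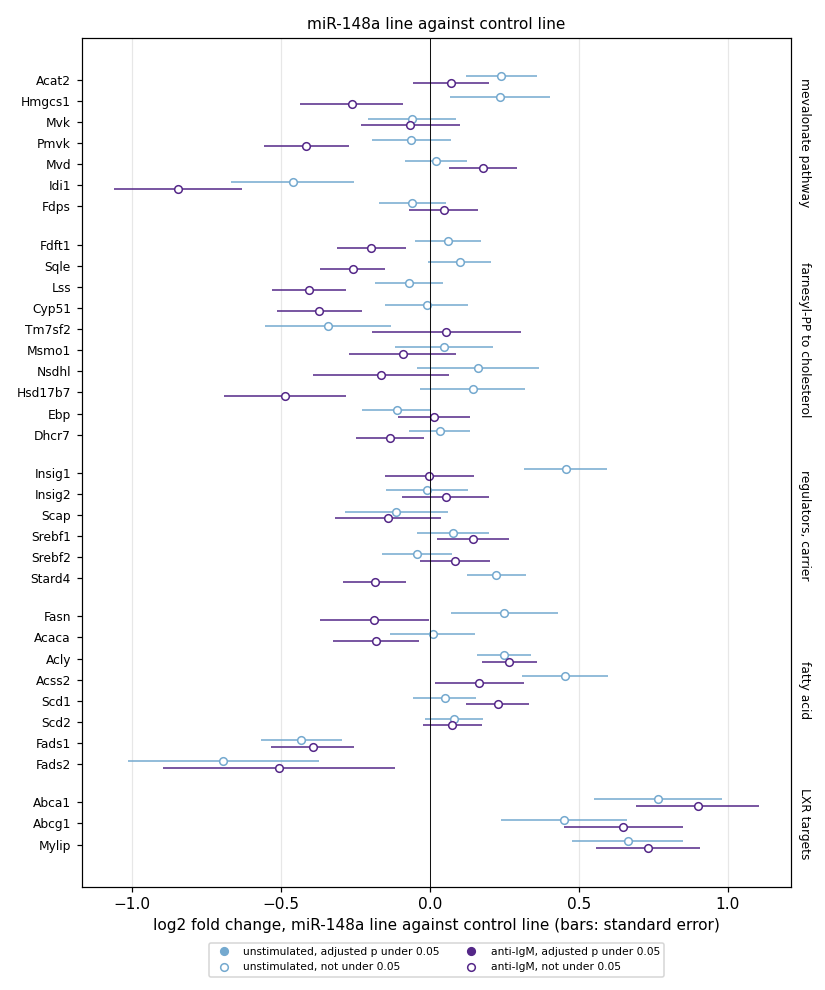
Log2 difference between the lines, miR-148a minus control, for each tested member without stimulation (light blue) and with anti-IgM (purple), bars: standard error. All points are open, since no adjusted p of the main edgeR fit, which had no replicate block, was under 0.05. Abca1, Abcg1 and Mylip lie to the right in both conditions and Idi1, Fads1 and Fads2 to the left.

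Whether anti-IgM acted differently in the lines was tested as the interaction. In this test 0 of 34 members passed, with every adjusted p at 0.9996 (edgeR), and 0% of all genes did. An unadjusted p under 0.05 was found for 3 members and 484 of all genes, and DESeq2 and the block called 0 members. The 3 were Stard4 (-0.41 ± 0.15), Sqle (-0.36 ± 0.15) and Hsd17b7 (-0.63 ± 0.27), each with a larger fall in the miR-148a line. The difference was negative for 13 of the 17 sterol enzymes, with a median of -0.26, and for 6069 of all 11291 genes, with a median of -0.02. The enzymes share regulators and libraries, so this count is a description.

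Other genes of lipid supply came from a list of 57, of which 55 were in the table and 50 were tested. In the control line 6 rose and 8 fell (11 and 15 with the block), and in the miR-148a line 8 rose and 13 fell (12 and 19 with the block), with medians of -0.07 and -0.08. Over all genes 9.60% rose and 7.45% fell in the control line and 14.7% and 14.0% in the miR-148a line (17.6%, 17.2%, 22.8% and 23.3% with the block), so the shares of rises in the list were close to the background. Tmem97, a sterol-responsive membrane protein, went from 114 and 129 CPM to 60.4 and 80.7 CPM and, in the miR-148a line, from 110 and 111 CPM to 58.0 and 50.8 CPM. Its log2 fold changes were -0.78 ± 0.15 (adjusted p = 0.00929, edgeR) and -1.02 ± 0.15 (adjusted p = 0.00157), the first lost in 2 of 8 fits without 1 library. Cd36, a fatty acid uptake receptor, fell by -1.17 ± 0.14 (adjusted p = 0.00168) in the control line and -0.92 ± 0.14 (adjusted p = 0.0018) in the miR-148a line.

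Acacb, the carboxylase form tied to control of fatty acid oxidation, rose while Acaca did not. It went from 6.26 and 6.67 CPM to 14.2 and 13.5 CPM in the control line (1.10 ± 0.15, adjusted p = 0.0025, edgeR) and from 7.96 and 8.14 CPM to 18.6 and 19.4 CPM in the miR-148a line (1.24 ± 0.14, adjusted p = 0.000707). Fabp5, a fatty acid binding protein, fell from 13.1 and 12.5 CPM to 8.37 and 6.26 CPM in the control line (-0.84 ± 0.22, adjusted p = 0.0318), a call lost in 6 of 8 fits without 1 library. In the miR-148a line it fell from 10.3 and 11.4 CPM to 1.97 and 3.32 CPM (-1.96 ± 0.25, adjusted p = 0.00105).

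Between the lines, 0 of these 50 genes passed unstimulated and 3 passed with anti-IgM. Unstimulated, 7 had an unadjusted p under 0.05 (edgeR), beside 1286 of all 11291 genes. Nr1h2, which encodes LXR beta, was higher under anti-IgM in the miR-148a line than in the control line, at 60.5 and 57.5 CPM against 43.3 and 41.9 CPM (0.47 ± 0.10, adjusted p = 0.0473, edgeR). Unstimulated it had 43.7 and 43.8 CPM against 32.2 and 29.9 CPM (0.49 ± 0.10, adjusted p = 0.0746; 0.00382 with the block). Nr1h3, which encodes LXR alpha, was at 0.306 to 0.956 CPM in all 8 libraries and was not tested. Under anti-IgM the miR-148a line had less Fabp5 (-1.36 ± 0.27, adjusted p = 0.04), and less Acsl4, a long-chain acyl-CoA synthetase (-0.85 ± 0.15, adjusted p = 0.0318). Calls for Nr1h2 and Fabp5 in this comparison were lost in each fit without 1 library, and that for Acsl4 in 5 of 8.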

How the data were processed

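PolyA-selected RNA of 8 libraries was measured, prepared with a directional kit per the labels' protocols. A single table was deposited by the authors, holding estimated counts for each gene symbol (expected counts, without normalisation). The submitters' processing notes list CASAVA 1.8, cutadapt, TopHat2 2.0.13, Bowtie2, the Partek suite (6.15.0730), edgeR, mm10 and GRCm38. Neither the annotation nor whether strand was used in counting is given in the sources used here. Of 24081 rows, 27 named calendar dates (0.213% to 0.235% of a library's counts) and were left out. Between 9.54% and 12.8% of a library's values were not whole, and all were rounded.

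All 8 libraries were fitted with 4 group means (edgeR 4.0.16 in R 4.3.3, quasi-likelihood test, filterByExpr by group, TMM factors, Benjamini-Hochberg adjustment over 11291 genes, threshold 0.05, 4 residual degrees of freedom). The fit was also run on counts simulated with the same spread for every gene and no run effect. These libraries do have a run effect, so no conclusion is drawn from that simulation. The biological coefficient of variation was 11.1% (5.98% with the block). The 5 contrasts were anti-IgM in each line, the lines in each condition, and the interaction. Replicates differed by more than sampling noise (mean chi-square 9.78 to 14.0 per gene). Same-numbered libraries, which share a run per the labels, deviated together for each of the 6 group pairs (Pearson's r of 0.495 to 0.569 across genes, which are not independent replicates), so the numbers pair libraries by run. Blocked values stand beside results they change. Alternatives were DESeq2 1.42.0, RLE factors, other filters, only the compared groups, and leaving out each library. Floors cover counting error only.

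CPM are scaled to library total and TMM factor. Values with ± are log2 fold changes with standard errors unless named otherwise. All 35 members are reported, and of the other list the called genes with the largest changes at a mean log2 CPM of at least 1 (up to 4 per response, 3 per line comparison). The members and lists were chosen with earlier results of these data known. Motif and seed searches used Python 3.11.15 on RefSeq promoters and GENCODE M21 transcripts (GRCm38). Some listed genes are not reported here.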

Additional observations from a re-analysis of the deposited data

How the results depend on the processing

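In the control line 18 members were called. Leaving out 1 library gave 9 to 20 calls: 10 without unstimulated replicate 1, 9 without unstimulated replicate 2, 13 without anti-IgM replicate 1 and 10 without anti-IgM replicate 2 of that line. In the miR-148a line 22 were called, with 19 to 22 when 1 library was left out. Other settings gave 18 to 27 and 21 to 26, the highest with the replicate block. Between unstimulated lines 0 were called and 6 with the replicate block, which gave 10 with anti-IgM. There DESeq2 called 2, keeping low counts 3, and leaving out 1 library 0 to 3. The interaction gave 0 under every setting run. Apart from the replicate block, the shares of all genes called under these alternatives were not counted. For 96 chosen single-gene results (every tested member in both responses and selected genes of the line comparisons and of the other list), 1344 values were computed under the alternatives: 1190 kept direction and side of the threshold, 53 passed newly, 83 no longer passed and 18 changed sign, all in uncalled results near 0. Sign changes outside these 96 were not counted. The replicate block changed 29 of these calls, all newly passing and given beside the results, and no other. Members of the line comparisons had entered the 96 because the block called them, so part of these 29 followed from the choice. With 1 library left out, values with anti-IgM in the control line ran from -0.041 to 0.26 for Pmvk, -0.11 to 0.14 for Ebp, -0.028 to 0.20 for Insig2, -0.42 to 0.0078 for Scap and -0.18 to 0.023 for Srebf2. In the miR-148a line Srebf2 ran from -0.059 to 0.14, and Insig1 between stimulated lines from -0.19 to 0.18. Ebp in the control line changed to -0.0014 with RLE factors, -0.0035 in DESeq2 and -0.048 with low counts kept. Insig1 between stimulated lines changed to 0.00027 with RLE factors, 0.0041 with low counts kept and 0.0092 with the compared groups alone. The cause was not tested. Scaling moved the median of all genes by at most 0.02. Depth limits Elovl6, with 0 counts, and Fads2, with the largest standard errors among the tested members (0.34 and 0.37 in the responses).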
